A study of Mus musculus with 20 samples.

Results

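The genes described here restrain or report the ERK pathway: the dual-specificity phosphatases Dusp1, Dusp4, Dusp5 and Dusp6, the Sproutys Spry1, Spry2 and Spry4, the Sprouty-related Spred1, and the ETS transcription factors Etv4 and Etv5. They were chosen by name, and all probe sets that the platform annotation gives to one of these symbols were taken. This gave 24 probe sets for the 10 genes, out of 45037 non-control probe sets and 18193 named genes on the array. Dusp1, Dusp4, Dusp5, Dusp6 and Spry1 had 1 probe set each, Spry2 and Etv4 had 2, Etv5 had 3, Spry4 had 4 and Spred1 had 8. The 10 genes lie on 10 different chromosomes, and none lies on chromosome 1, which carries Hdac4.

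The study asked whether loss of the histone deacetylase HDAC4 alters transcription in the neonatal brain, and measured whole-brain RNA on Affymetrix mouse genome arrays. By the labels, the Hdac4KO group held 10 brains of Hdac4 knock-outs at postnatal day 3 and the WT group 10 brains of the same age, 5 of each sex in each genotype. Homozygotes came from intercrosses within a colony kept by mating heterozygous males to B6CBAF1/OlaHsd females, both groups carry that background label, and no animal was treated. The allele is carried in every cell of the body, so the brain was not the only organ without HDAC4, and whole brain mixes all of its cell types.

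Growth factors such as the FGFs activate receptor tyrosine kinases, which switch on Ras and a kinase cascade that ends in ERK, the extracellular signal-regulated kinase. Active ERK induces its own brakes: dual-specificity phosphatases strip phosphate from ERK and related kinases, Sprouty and Spred proteins act higher up on Ras and Raf, and Etv4 and Etv5 carry FGF signals into the nucleus. In the developing brain, Dusp6, the Sproutys and Etv5 are widely used as markers of FGF signalling, and Dusp1 and Dusp5 are also induced within minutes by neuronal activity or serum.

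RefSeq promoter windows on GRCm38.p6 were matched for 7 of the 10 genes (8 windows, since Etv5 had 2), and the 250 bases before the annotated start were searched on both strands for 3 motifs. These were TGACGT, the core of the cAMP response element, CGGAAG, a core bound by ETS factors, and the CArG box, the motif of serum response factor. Dusp5 and Spry2 are shown because their signals co-varied across arrays, Dusp6 because its brightest probe set had the largest difference between genotypes, and Dusp1 as another inducible phosphatase. Capitals mark motif matches, and each sequence runs 5′ to 3′ on the strand of the gene.
Dusp1 (chr17:26508473-26508722, minus strand): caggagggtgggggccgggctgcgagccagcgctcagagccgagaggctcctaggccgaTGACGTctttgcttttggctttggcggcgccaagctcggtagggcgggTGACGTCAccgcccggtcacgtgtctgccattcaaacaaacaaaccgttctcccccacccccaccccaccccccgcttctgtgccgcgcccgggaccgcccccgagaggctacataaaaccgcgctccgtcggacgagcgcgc
Dusp5 (chr19:53528895-53529144, plus strand): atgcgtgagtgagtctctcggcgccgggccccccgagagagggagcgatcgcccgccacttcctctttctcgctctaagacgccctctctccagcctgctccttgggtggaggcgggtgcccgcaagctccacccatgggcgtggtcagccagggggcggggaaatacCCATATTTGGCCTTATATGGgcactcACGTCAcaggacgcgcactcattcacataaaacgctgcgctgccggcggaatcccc
Dusp6 (chr10:99262981-99263230, plus strand): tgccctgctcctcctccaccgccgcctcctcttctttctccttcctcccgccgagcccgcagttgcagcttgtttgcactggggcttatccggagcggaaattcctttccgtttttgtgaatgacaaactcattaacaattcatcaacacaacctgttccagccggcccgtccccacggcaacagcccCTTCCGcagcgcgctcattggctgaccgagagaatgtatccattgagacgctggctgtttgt
Spry2 (chr14:105896820-105897069, minus strand): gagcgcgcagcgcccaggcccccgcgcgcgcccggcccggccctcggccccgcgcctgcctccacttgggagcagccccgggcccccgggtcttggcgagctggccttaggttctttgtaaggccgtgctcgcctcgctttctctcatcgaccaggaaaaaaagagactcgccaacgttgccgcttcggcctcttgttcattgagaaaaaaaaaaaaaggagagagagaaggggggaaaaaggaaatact

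The Dusp1 window held TGACGT from 191 to 186 bases before the start, and a second stretch from 143 to 136 bases before it where matches on both strands overlap. The Dusp5 window held 2 CArG boxes end to end, from 82 to 63 bases before the start, and the cAMP response core on the other strand from 56 to 51 bases before it. The Dusp6 window held the ETS core on the other strand, from 62 to 57 bases before the start, and Spred1 had it from 17 to 12 bases before its start. No match to any of the 3 was found in the windows of Spry1, Spry2 and Etv5. Of all 32851 windows of this length, 6.47% held TGACGT, 13.6% held CGGAAG and 1.47% held a CArG box. A match describes letters in the window and is not a measured binding site.

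The labels and the arrays were checked first. Hdac4 fell in Hdac4KO brains at its 3 probe sets, with log2 fold changes of −1.39, −1.19 and −0.46 (limma, adjusted p = 6.28e-07, 9.48e-07 and 0.0198). Whether they lie in the deleted part of the gene was not stated. The array labelled Hdac4KO replicate 10 went against its group, with Hdac4 signals of 7.43 and 7.35 at the first and second probe sets, where the other Hdac4KO arrays reached no higher than 6.59 and 6.74. The array labelled WT replicate 8 was the lowest of its group there, at 7.54 and 7.36. Both are named by their labels throughout, and results are also given without them. Xist and the Y-linked Kdm5d both went against the sex label in WT replicates 5 and 9. Hdac4KO replicate 10, labelled male, carried both transcripts, so that only Xist (12.27) went against its label and Kdm5d (6.88) did not. These are the 3 arrays described below as going against their sex label. Array medians lay between 6.26 and 6.32 on the log2 scale. The actin and Gapdh control probe sets, which report RNA integrity, had a mean 3′ minus 5′ signal of 0.216 ± 0.0296 in Hdac4KO arrays and 0.191 ± 0.0311 in WT arrays (SD, n = 10 each; two-sided permutation test with 100000 resamples, p = 0.0836). Of 9 choroid plexus and ependyma markers, 3 were called lower in Hdac4KO brains, where 0.517% of all genes were at their brightest probe sets. The summed linear signal of the markers ranged from 16410 to 19350 in Hdac4KO and from 18120 to 21160 in WT arrays. Most of this sum came from Ttr, with mean log2 signals of 14.02 in Hdac4KO and 14.16 in WT arrays. The next brightest, Otx2, stood at 8.27 and 8.39. Of 10 microglial markers none was called. At an unadjusted p under 0.05 (limma) 5 were higher and 0 lower, where 12.8% of all genes were higher and 6.19% lower. The microglial sums ran from 2539 to 3686 in Hdac4KO and from 2597 to 3208 in WT arrays. The part of these shifts in the values below was not tested.

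Across the 10 feedback genes, few differences between the genotypes passed a test. At an adjusted p under 0.05 over all 45037 probe sets (limma), none of the 24 probe sets was higher and 1 was lower in Hdac4KO brains, a dim probe set of Spred1; with the t-test of the methods 0 passed. The background over all probe sets was 1.05% called higher and 1.01% called lower, 2.06% in all. Of the 24, 18 (75%) had a log2 fold change above 0, against 51.9% of all probe sets, and their median was 0.0182, against 0.00353 for all probe sets. At the brightest probe sets 7 of the 10 genes (70%) lay above 0, against 57.2% of all genes. At an unadjusted p under 0.05, 3 were higher (Dusp6, Spry1 and the brightest probe set of Spry2) and 1 was lower, where 9.93% of all probe sets were higher and 8.1% were lower. With each gene read at its brightest probe set, none of the 10 was called, where 1.45% of all genes were higher and 0.517% were lower. In whole brain, fewer cells of a type and less RNA per cell cannot be told apart.

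**Figure D1:**
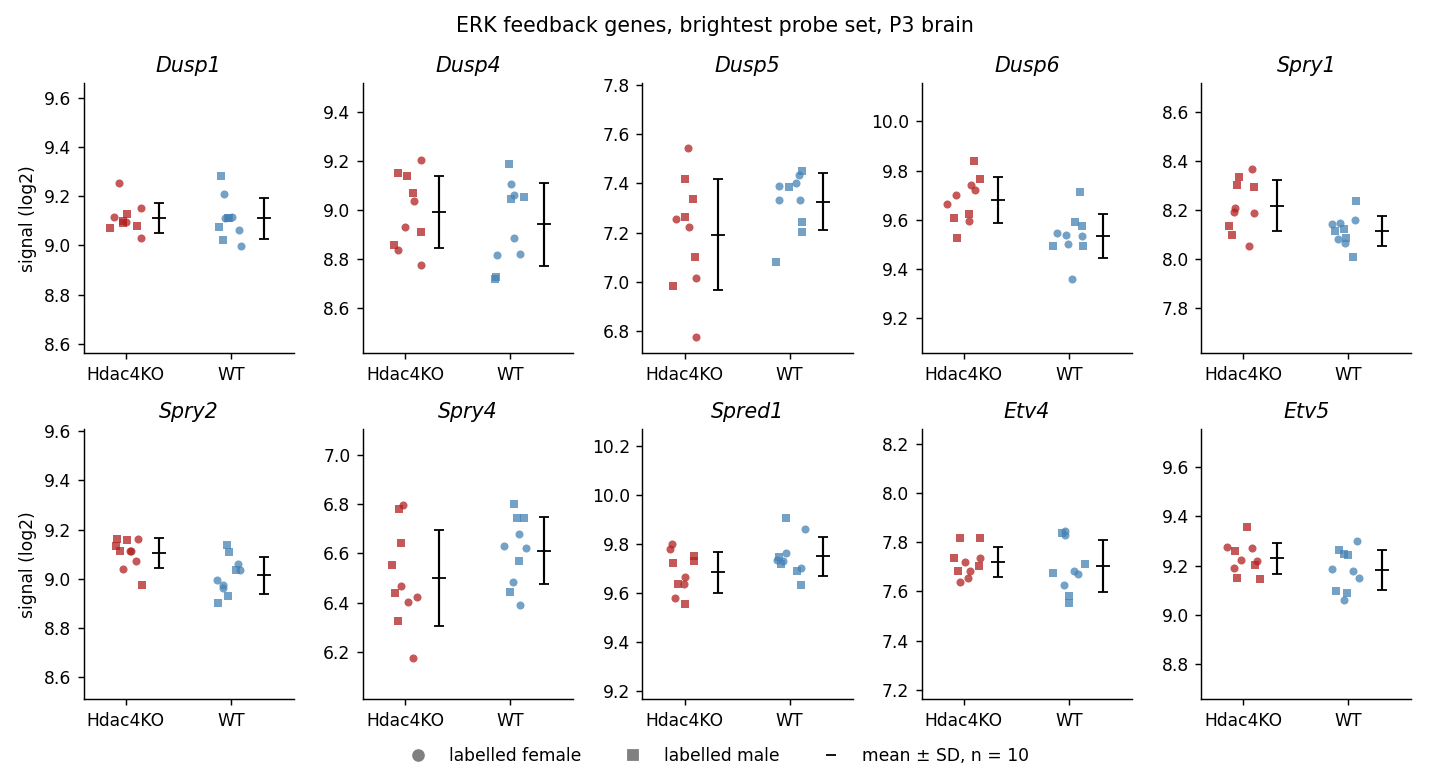
Log2 signal of the brightest probe set of each gene in every array (y axis, the same span in all panels), Hdac4KO in red and WT in blue. Circles are brains labelled female, squares those labelled male, and bars give the mean ± SD (n = 10). The genotypes overlap in every panel, and Dusp6 has 4 Hdac4KO arrays above all WT arrays.

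Among the nuclear phosphatases, which are made on demand and act on ERK and related kinases inside the nucleus, no difference passed. Dusp1, the classical stress and serum response phosphatase, had a lowest, median and highest signal of 9.03, 9.10 and 9.25 in Hdac4KO arrays and of 9.0, 9.11 and 9.28 in WT arrays. The ranges nearly coincided. Its log2 fold change was 0.00 (95% interval −0.07 to 0.07, limma adjusted p = 0.991), so a difference beyond 1.05-fold either way lay outside the interval.

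Dusp4, which also acts on JNK and p38, had signals of 8.78, 8.98 and 9.20 in Hdac4KO arrays and of 8.72, 8.96 and 9.19 in WT arrays (lowest, median and highest). Again the groups covered the same range. The log2 fold change was 0.05 (95% interval −0.09 to 0.19, limma adjusted p = 0.756).

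Dusp5, which is specific for ERK, spread widest of the phosphatases among Hdac4KO arrays, from 6.78 to 7.55 with a median of 7.24, against 7.08 to 7.45 with a median of 7.36 in WT arrays. Hdac4KO arrays thus lay both below and above all WT arrays. The means were 7.19 ± 0.23 in Hdac4KO and 7.33 ± 0.12 in WT (SD, n = 10 each), a log2 fold change of −0.13 (95% interval −0.29 to 0.02, limma adjusted p = 0.370).

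Dusp6, the cytoplasmic ERK phosphatase and a widely used readout of FGF signalling, had the largest difference of the 10 brightest probe sets. Its signals ran from 9.52 to 9.84 with a median of 9.68 in Hdac4KO arrays, and from 9.36 to 9.71 with a median of 9.54 in WT arrays. Of the Hdac4KO arrays, 9 lay above the WT mean and 4 above every WT array, yet the groups overlapped. The means of 9.68 ± 0.09 and 9.53 ± 0.09 for Hdac4KO and WT (SD, n = 10 each) gave a log2 fold change of 0.14 (SE 0.04, 95% interval 0.06 to 0.23), or 1.11-fold (1.04 to 1.17).

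This Dusp6 difference had an unadjusted p of 0.00242 and did not pass over all probe sets (limma adjusted p = 0.0706). It passed under 4 of 34 alternative settings: with dim probe sets left out (adjusted p = 0.0357), with a trended robust fit (0.0438), and without Hdac4KO replicate 2 (0.0323) or WT replicate 6 (0.0468). In the same order, these settings called 1674 of 22603, 1385 of 45037, 1715 of 45037 and 550 of 45037 probe sets. The main fit called 927 of 45037. With the 3′ to 5′ control signal as a covariate the Dusp6 difference was 0.11 (adjusted p = 0.254). Without WT replicate 8 and Hdac4KO replicate 10 it was 0.14 (adjusted p = 0.136), and without the 3 arrays that went against their sex label 0.13 (adjusted p = 0.181).

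The Sproutys, which block Ras and Raf activation downstream of receptors, were mixed. Spry1 had signals of 8.05, 8.20 and 8.37 in Hdac4KO arrays and of 8.01, 8.12 and 8.24 in WT arrays (lowest, median and highest). Of the Hdac4KO arrays, 4 lay above every WT array and the rest inside the WT range. The log2 fold change was 0.10 (95% interval 0.02 to 0.18), with an unadjusted p of 0.0185 and a limma adjusted p of 0.174.

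Spry2 stood at 8.97, 9.11 and 9.16 in Hdac4KO arrays and at 8.90, 9.02 and 9.14 in WT arrays (lowest, median and highest, brightest probe set). The upper ends of both groups lay close together, with 3 Hdac4KO arrays above every WT array and 4 WT arrays below every Hdac4KO array. The log2 fold change was 0.09 (95% interval 0.02 to 0.16, limma adjusted p = 0.153), and the dim second probe set gave 0.10 (95% interval −0.02 to 0.22, adjusted p = 0.389).

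Spry4 gave different signs at its 4 probe sets. The brightest ran from 6.17 to 6.80 with a median of 6.45 in Hdac4KO arrays, and from 6.39 to 6.80 with a median of 6.63 in WT arrays, so the groups shared their upper end and some Hdac4KO arrays reached below the WT range. Its log2 fold change was −0.11 (95% interval −0.26 to 0.04, limma adjusted p = 0.446). The other 3 probe sets stood at 0.09, 0.05 and 0.00, the correlations among the 4 across arrays ran from −0.33 to 0.29, and the mean over all of them gave 0.0075. No direction can be given for Spry4.

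Spred1, a membrane-anchored relative of the Sproutys that brings neurofibromin to Ras, was the only member with a called probe set. That probe set, the dimmest of its 8, lay below the array median in all 20 arrays, at 3.45, 3.75 and 4.11 in Hdac4KO arrays and at 3.80, 4.18 and 4.55 in WT arrays (lowest, median and highest). All 10 Hdac4KO arrays lay below the WT mean, and the ranges still overlapped. The means of 3.81 ± 0.22 in Hdac4KO and 4.17 ± 0.22 in WT (SD, n = 10 each) gave a log2 fold change of −0.36 (SE 0.09, 95% interval −0.55 to −0.16, limma adjusted p = 0.0481).

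The other 7 probe sets of Spred1 did not follow it. The brightest had signals of 9.55, 9.69 and 9.80 in Hdac4KO arrays and of 9.63, 9.73 and 9.90 in WT arrays, a log2 fold change of −0.06 (95% interval −0.14 to 0.02, adjusted p = 0.401). The largest difference of the 7 was −0.17, at the fourth brightest (95% interval −0.36 to 0.02, adjusted p = 0.348), and the remaining 5 lay between −0.03 and 0.05. Over the 28 pairs of Spred1 probe sets, correlations across arrays ran from −0.62 to 0.74 with a median of 0.13. The call at the dimmest probe set was kept without WT replicate 9 or 10 or Hdac4KO replicate 1, 2, 3 or 4, and lost without any one of the other 14 arrays (adjusted p from 0.0516 to 0.0925). It was also lost with the t-test of the methods (0.0652) and with the 3′ to 5′ covariate (−0.31, adjusted p = 0.177), without WT replicate 8 and Hdac4KO replicate 10 (−0.32, adjusted p = 0.104), and without the 3 arrays against their sex label (−0.35, adjusted p = 0.0633).

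**Figure D2:**
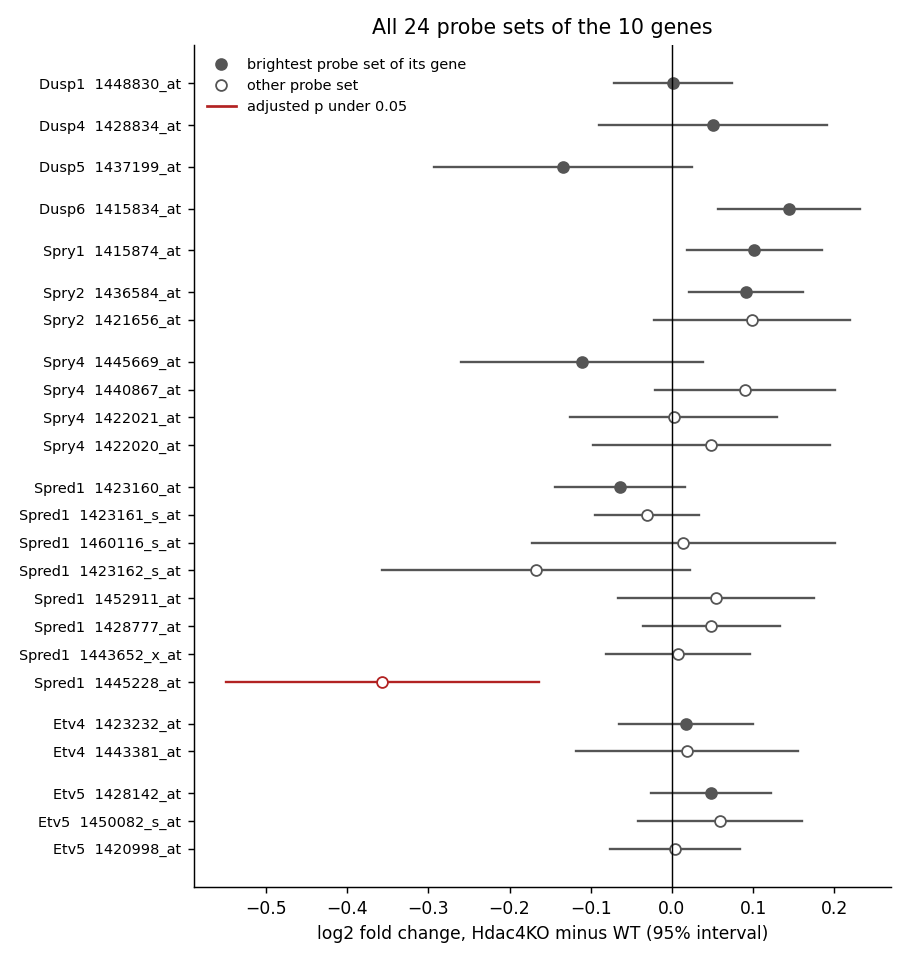
Log2 fold change of Hdac4KO minus WT (x axis) with its 95% interval for all 24 probe sets (y axis), brightest first within each gene. Filled points are the brightest probe set of a gene, open points the others. The called probe set of Spred1, in red, lies at −0.36, apart from the other 7 of that gene, which lie between −0.17 and 0.05.

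The PEA3 factors were close to equal between the genotypes. Etv4 had signals of 7.64, 7.71 and 7.82 in Hdac4KO arrays and of 7.55, 7.68 and 7.85 in WT arrays (lowest, median and highest), with the Hdac4KO range inside the WT range. Its log2 fold change was 0.02 (95% interval −0.07 to 0.10, limma adjusted p = 0.874), and the dim second probe set also gave 0.02 (adjusted p = 0.921). Etv5 had signals of 9.15, 9.22 and 9.36 in Hdac4KO arrays and of 9.06, 9.18 and 9.30 in WT arrays, and the groups overlapped over most of their range. Its log2 fold change was 0.05 (95% interval −0.03 to 0.12, limma adjusted p = 0.513), with 0.06 and 0.00 at its other probe sets.

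No difference between the sexes in the genotype effect was found for the members. In a fit of sex and genotype with their interaction, 0 of 24 probe sets and 0% of all probe sets passed (limma), and 0 of the 24 had an unadjusted p under 0.05. The smallest was 0.13, for Etv4, whose log2 fold change was 0.08 in labelled males and −0.05 in labelled females (adjusted p = 0.924 for the difference). Dusp6 stood at 0.10 in labelled males and 0.19 in labelled females. At the brightest probe sets, 8 of 10 genes had the same sign in both sexes, the exceptions being Dusp1 and Etv4. The share of all genes with the same sign was not counted, so this count has no background. Since 3 arrays went against their sex label, these groups are those of the labels.

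Co-variation of the members across arrays was measured after the mean of each genotype had been removed, so that it describes differences among arrays of one genotype. These can include RNA quality as well as the brains. Correlations of the members with the 3′ to 5′ control signal ran from −0.32 (Spred1) to 0.50 (Etv4). Those of the called pairs were −0.12 for Dusp5, 0.21 for Spry2 and 0.30 for Spry1. The pair count with this signal regressed out is given in the closing sections. Of 45 pairs of members at their brightest probe sets, 2 passed after Benjamini-Hochberg adjustment over the 45 (two-sided permutation test within genotype, 100000 resamples). Pearson's r lay above 0.5 for 6.67% of the pairs and below −0.5 for 2.22%. Over all 66787903 pairs of the 11558 genes brighter than the median probe set, the shares were 7.84% and 2.94%, and the median r was 0.03 for members and 0.08 for all pairs. By these counts the members lay near the background of gene pairs. The permutation test of a pair asks whether r differs from 0, and not whether it stands out from this background.

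Dusp5 and Spry2 varied together, with r = 0.645 (p = 0.00084, adjusted p = 0.03465) and Spearman's rho = 0.58 (p = 0.0088, adjusted p = 0.132). Within genotypes r was 0.75 in Hdac4KO arrays and 0.64 in WT arrays, and it was 0.65 (permutation p = 0.00287) without Hdac4KO replicates 5 and 6, the arrays farthest from the median of Dusp5. The second, dim probe set of Spry2 gave r = 0.35 with Dusp5. The adjusted p lay between 0.0518 and 0.0785 without WT replicate 1, 4, 5 or 8 or Hdac4KO replicate 1, 2, 3 or 4, and under 0.05 without any other single array.

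Spry1 and Spred1 went in opposite directions, with r = −0.685 (p = 0.00154, adjusted p = 0.03465) and rho = −0.60 (p = 0.00879, adjusted p = 0.132). Within genotypes r was −0.77 in Hdac4KO arrays and −0.58 in WT arrays, and it was −0.61 (permutation p = 0.0104) without Hdac4KO replicates 1 and 6. The relation depended on the Spred1 probe set: r with Spry1 ran from −0.70 to 0.13 over the 8. Its adjusted p was 0.0608 without WT replicate 8 and Hdac4KO replicate 10 and 0.113 without the arrays against their sex label, where that of Dusp5 and Spry2 was 0.0162 and 0.0302. Leaving out WT replicate 4, 5 or 8 or Hdac4KO replicate 1, 2, 3, 4, 6 or 8 singly took it to between 0.0518 and 0.156.

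**Figure D3:**
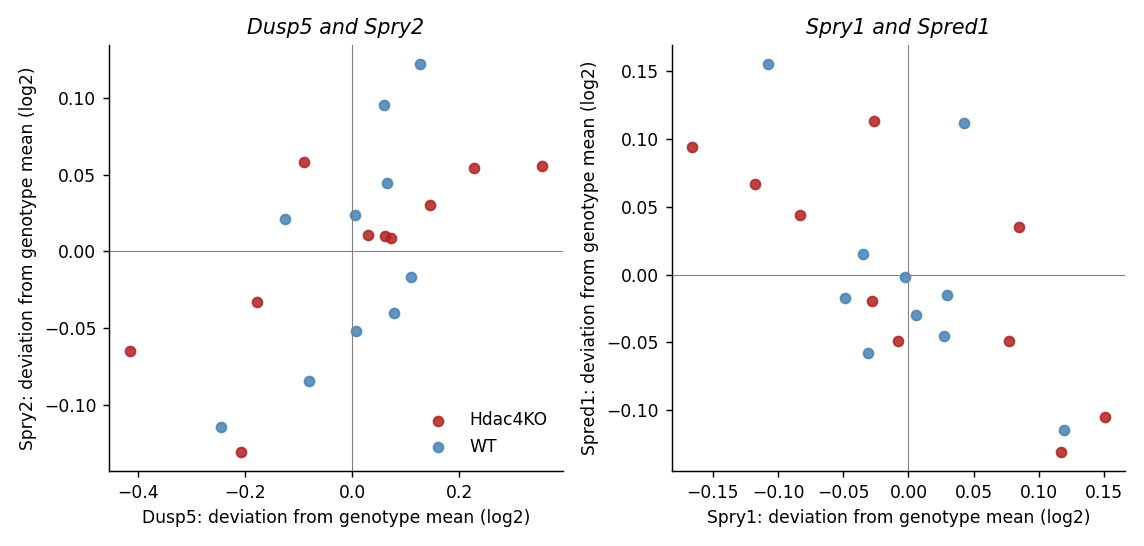
Deviation of each array from its genotype mean on the log2 scale, for Dusp5 (x axis) against Spry2 (y axis) on the left and Spry1 against Spred1 on the right, brightest probe sets, Hdac4KO in red and WT in blue (10 arrays each). The left cloud slopes upward (r = 0.645) and the right one downward (r = −0.685), in both genotypes.

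Some pairs with related roles missed the threshold. The phosphatases Dusp1 and Dusp4 had r = 0.58 (p = 0.00924, adjusted p = 0.104) and rho = 0.38 (p = 0.112, adjusted p = 0.490). Within genotypes r was 0.43 in Hdac4KO and 0.68 in WT arrays. It was weaker without WT replicate 6 and Hdac4KO replicate 9, at 0.34 (permutation p = 0.193). These arrays lay farthest from the median of Dusp1, so leaving them out also narrows its range. Spry1 and Etv4 had r = 0.55 (p = 0.00386, adjusted p = 0.0579) and rho = 0.60 (p = 0.00549, adjusted p = 0.132), and r was 0.69 (permutation p = 0.00029) without Hdac4KO replicates 1 and 6. It was 0.48 in Hdac4KO and 0.79 in WT arrays, and the second probe set of Etv4 gave r = −0.16 with Spry1. Dusp6 and Etv5, both used as markers of FGF signalling, had r = 0.18 and rho = 0.27 (p = 0.457 and 0.256, adjusted p = 0.791 and 0.606). The pair of Etv4 and Etv5 had r = 0.33 and rho = 0.29 (p = 0.197 and 0.253, adjusted p = 0.634 and 0.606).

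**Figure D4:**
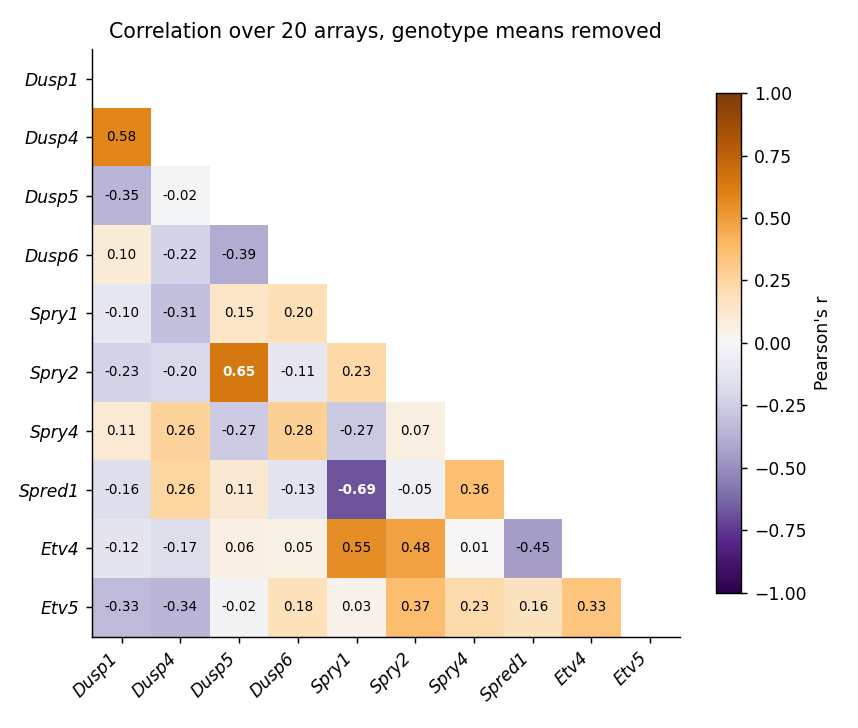
Pearson's r over 20 arrays for each of the 45 pairs of members at their brightest probe sets, with genotype means removed (both axes list the genes, colour gives r). Bold values mark the 2 pairs with an adjusted p under 0.05, Dusp5 with Spry2 and Spry1 with Spred1.

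Genes most alike in pattern were sought among non-members only, and are named for some of the members. Over the 20 arrays, with genotype means removed, the 3 of 11548 other genes closest to Dusp6 were Pdcd10 (r = 0.81), Syndig1l (0.80) and Mtmr7 (0.79). For Dusp5 they were Neurod1, a neuronal transcription factor (0.81), Cenpm, a centromere protein (0.80), and Gins2, a replication factor (0.78), and for the brightest probe set of Spred1 they were Zdhhc15 (0.81), Nupl1 (0.78) and Sars2 (0.77). Cenpm was also the gene closest to Spry2 (0.78). These are the highest of many correlations in the same arrays and carry no test.

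Around the members, 5 lists of the same pathway were read at the brightest probe set of each gene, where 1.45% of all genes were called higher and 0.517% lower, and 12.8% were higher and 6.19% lower at an unadjusted p under 0.05. No list was tested as a whole. Of 21 receptors and ligands, 1 was called, Hgf, the ligand of Met, lower by 0.15 in Hdac4KO brains (limma adjusted p = 0.0495). The mean over its probe sets was −0.037 (adjusted p = 0.573), and with the 3′ to 5′ covariate its adjusted p was 0.178. The called Hgf probe set was dim, with means of 4.90 in Hdac4KO and 5.05 in WT arrays, below the lowest array median of 6.26. Of 13 Ras-ERK cascade genes named in the annotation, out of 21 listed, 1 was called: Ksr1, the scaffold that holds Raf, MEK and ERK together, was higher. Its signal ran from 8.01 to 8.28 in Hdac4KO arrays and from 7.86 to 8.03 in WT arrays, with an overlap at the edge only. This made a log2 fold change of 0.19 (SE 0.04, limma adjusted p = 0.0162), but the mean over its probe sets gave 0.05 (adjusted p = 0.429) and the 3′ to 5′ covariate an adjusted p of 0.0808.

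Of 15 other negative regulators, 1 was called: Nf1, the Ras GTPase-activating protein that Spred1 recruits, was higher by 0.15 (adjusted p = 0.0478), with 0.01 (adjusted p = 0.904) as the mean over its probe sets. The Nf1 call was lost with the 3′ to 5′ covariate (0.12, adjusted p = 0.195), without WT replicate 8 and Hdac4KO replicate 10 (0.13, adjusted p = 0.117), and without the 3 arrays against their sex label (0.15, adjusted p = 0.0911). Of 10 other ETS factors, 0 were called (limma, 4 higher and 0 lower at an unadjusted p under 0.05). The smallest p-values belonged to Elk1, a ternary complex factor that ERK phosphorylates, at 0.14 (adjusted p = 0.0939), and its relative Elk4 at 0.08 (adjusted p = 0.139).

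Immediate-early genes, transcribed within minutes of ERK or calcium signalling, had 3 of 17 called higher and 1 lower. At an unadjusted p under 0.05 (limma) 8 were higher and 1 lower. Of the 17, 16 lay above 0 with a median of 0.10, where 57.2% of all genes lay above 0. This list, like the others, was chosen with earlier results of these data known. Egr1, a zinc-finger factor, had signals from 9.40 to 9.90 in Hdac4KO arrays and from 8.91 to 9.67 in WT arrays, a log2 fold change of 0.41 (SE 0.08, limma adjusted p = 0.0162). Its relative Egr2 rose by 0.35 (adjusted p = 0.0337) and Fos, a subunit of AP-1, by 0.26 (adjusted p = 0.0203). The Egr2 probe set was dim, with means of 6.04 in Hdac4KO and 5.69 in WT arrays, below the lowest array median of 6.26. Btg2, an antiproliferative gene, fell by 0.21 (adjusted p = 0.0486), with −0.12 (adjusted p = 0.0545) as the mean over its probe sets. With the 3′ to 5′ covariate the adjusted p-values of Egr1, Egr2, Fos and Btg2 were 0.0823, 0.152, 0.0986 and 0.197. Without WT replicate 8 and Hdac4KO replicate 10 those of Egr2 and Btg2 were 0.0847 and 0.110. The median of the feedback genes was 0.03 at their brightest probe sets, that of all genes was 0.01, and the difference from the immediate-early genes was not tested. Both groups spread widely, with Dusp6, Spry1 and Spry2 at 0.14, 0.10 and 0.09 and the immediate-early genes Jun and Ier5 at 0.00 and 0.01.

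**Figure D5:**
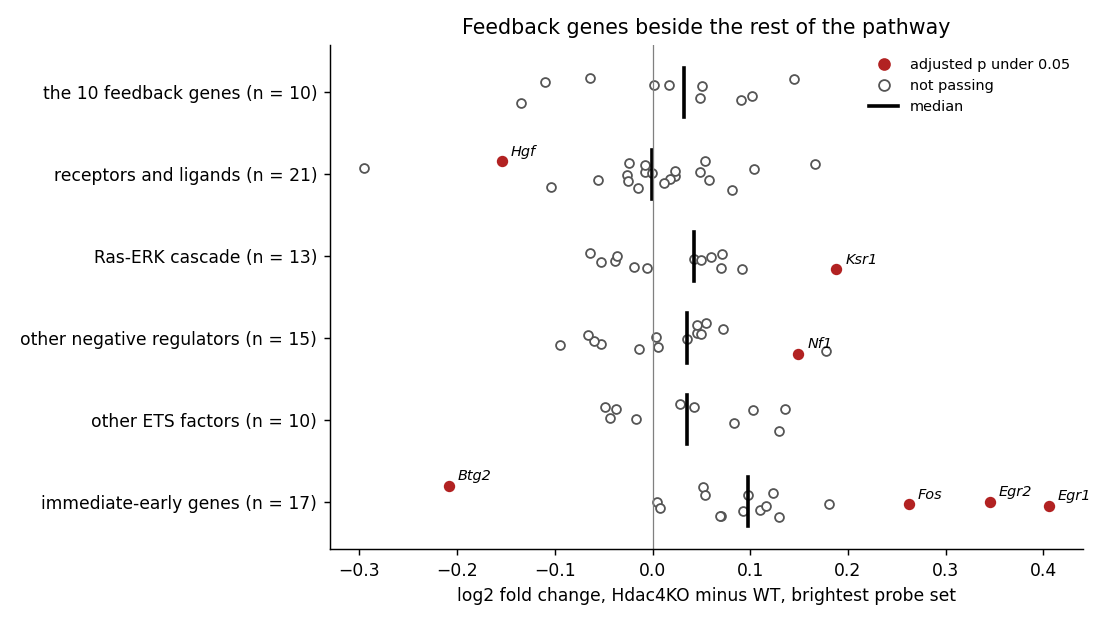
Log2 fold change of Hdac4KO minus WT (x axis) at the brightest probe set of each gene, for the 10 feedback genes and 5 lists of the same pathway (y axis). Each point is a gene, filled red where the adjusted p is under 0.05, and the black bar is the median of the list. The called genes are Hgf and Btg2 on the lower side and Ksr1, Nf1, Fos, Egr2 and Egr1 on the higher side, and none is a feedback gene.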

How the data were processed

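Whole-brain RNA (200 ng per array) of 10 Hdac4KO and 10 WT neonates at postnatal day 3 was labelled by 3′ in vitro transcription and hybridised to 3′ arrays. The deposited log2 values, 1 per probe set and array, were used as given. The methods of the study state that chips of high standard error were excluded. How probes were summarised and normalized was not stated in the sources used. The 64 control probe sets were left out. Probe sets were named through the platform annotation where it gives 1 symbol (34945 probe sets; 932 had several and 9160 none). Genotypes and the sex by genotype interaction were compared with limma 3.58.1 in R 4.3.3 (lmFit and eBayes, Benjamini-Hochberg over 45037 probe sets, threshold 0.05), where the methods used a two-tailed t-test. Correlations were computed in Python 3.11.15 with numpy 2.4.6. Each gene is named by its brightest probe set, and of each pathway list the called genes, or otherwise the 2 with the smallest p, are named. The Egr1 and Fos pairs in the closing section fall outside that rule. The members and lists were chosen with earlier results of these data known. The fits were tested on simulated data. Precision is limited by the number of arrays. Alternatives were the t-test and Welch's test, sex, 3′ to 5′ difference or replicate number as a covariate or block, dim probe sets left out (keeping those brighter than the median of their array in 10 or more arrays, 22603 in all and 16 of the 24 here), quantile normalization, median centring, trended robust fits, array weights, 1 value per gene, and each array left out. Leaving out 2 arrays by Hdac4 signal and 3 by sex-linked genes was added after seeing the data.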

Additional observations from a re-analysis of the deposited data

Results flagged for a closer look

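Of 48 groups checked (24 probe sets in each genotype), 2 held an array that stood apart from the other 9. Chance gives about 1 in 20. At the dimmer probe set of Spry2, Hdac4KO replicate 6 was the highest of its group at 5.76, with the next array at 5.50, a gap of 0.524 of the group's range. At the dimmer probe set of Etv4, Hdac4KO replicate 10 was the lowest of its group at 5.31, with the next at 5.61, a gap of 0.51 of the range. Hdac4KO replicate 10, labelled male, is the array that carried both Xist and Kdm5d.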

How the results depend on the processing

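Of the 10 genes at their brightest probe sets, Dusp6 crossed the threshold under 4 of 34 settings and the others under none. Signs turned for Dusp1 (−0.017 with the 3′ to 5′ covariate, −0.0125 with quantile normalization, −0.0072 with array weights, −0.0036 without WT replicate 8 and Hdac4KO replicate 10, −0.0078 without the 3 arrays against their sex label, −0.014 to 0.021 without single arrays), for Etv4 (−0.018 with the 3′ to 5′ covariate) and for Spry4 (0.0075 as the mean of its probe sets). The cause was not tested. Of the 24 probe sets, 0 were called with the t-test, Welch's test, sex or 3′ to 5′ covariate, quantile normalization, or without either set of doubted arrays. The trended robust fit called 2, and 0 to 2 were called without single arrays. With 1 value per gene 0 of 10 were called, and without dim probe sets 1 of 16, Dusp6. Over all 45037 probe sets the main fit called 927 (2.06%). The t-test called 1002, Welch's test 706, the sex covariate 855, quantile normalization 949 and the trended robust fit 1385. The 3′ to 5′ covariate called 43 and array weights 1501. Without dim probe sets 1674 of 22603 were called, and of 18193 genes 517 with the brightest and 392 with the mean probe set. There were 327 without WT replicate 8 and Hdac4KO replicate 10, and 415 without the 3 arrays. Without single arrays the count ran from 351 (WT replicate 2) to 1715 (Hdac4KO replicate 2). Of the 45 pairs, 2 passed, and 0 by Spearman's rho, within either genotype, or with the mean of probe sets, 1 with the 3′ to 5′ difference regressed out or without either set of doubted arrays, 4 with quantile normalization, and 0 to 4 without single arrays. Among the other named genes, Egr1, Fos and Ksr1 passed without each single array, while the others kept their call only without the arrays named here: Egr2 WT replicates 4, 6, 9 and 10 and Hdac4KO replicates 1 to 5, Btg2 WT 1, 9 and 10 and Hdac4KO 2, 4 and 6, Nf1 WT 6, 9 and 10 and Hdac4KO 2, 4 and 6, and Hgf WT 3 and 10 and Hdac4KO 2 (adjusted p up to 0.0638, 0.0931, 0.0925 and 0.0856).

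Replicate numbers did not pair the arrays: 1 of 10 same-numbered pairs correlated above 0.1 (range −0.149 to 0.162), and 1 of 10 WT arrays correlated best with its own number. With the number as a replicate block Nf1 (adjusted p = 0.127) and Hgf (0.0709) lost their call, 948 probe sets and 1 of the 24 were called, 0 of the 24 in the sex interaction, and 0 of the 45 pairs.

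The spread among 10 arrays per genotype sets what can be seen, and 8 of the 24 probe sets were dim.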

Other observations

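Pairs of the members with Egr1 and Fos, a family of 20 relations chosen after the genotype results were seen, held no pair that passed. Egr1 and Dusp6 had r = 0.66 (permutation p = 0.00302, adjusted p = 0.0506) and rho = 0.52 (p = 0.0268, adjusted p = 0.195) over 20 arrays with genotype means removed. Within genotypes r was 0.33 in Hdac4KO arrays and 0.95 in WT arrays. Without WT replicates 6 and 10 it was weaker, at 0.38 (permutation p = 0.184). These arrays lay farthest from the median of Egr1, so leaving them out also narrows its range. Fos and Dusp6 had r = 0.60 (permutation p = 0.00506, adjusted p = 0.0506) and rho = 0.50 (p = 0.0245, adjusted p = 0.195), with 0.21 in Hdac4KO and 0.86 in WT arrays, and 0.47 (permutation p = 0.0456) without WT replicates 1 and 6. The difference between the genotypes in r was not tested. The other 18 relations had an adjusted p of 0.537 or more over all 20 arrays, but some moved away from 0 when arrays were left out. Fos and Dusp1 had r = −0.11, and −0.69 (permutation p = 0.00249, unadjusted) without WT replicates 1 and 6. Without the same arrays Fos and Dusp4 had −0.55 (permutation p = 0.0249), against −0.23 over all arrays. Fos and Etv5 moved upward, to 0.54 (permutation p = 0.0306) from 0.33. Without WT replicates 6 and 10, Egr1 and Dusp4 had −0.63 (permutation p = 0.00673), against −0.31 over all arrays, and Egr1 and Dusp1 had −0.63 (permutation p = 0.00872), against −0.19. These relations were picked from the family by their values, and their p-values are unadjusted.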
